A study of Mus musculus with 6 samples.

Results

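Iron uptake, storage and export were described through 10 genes, chosen by name: the uptake genes Trf, Tfrc, Slc11a2 and Hfe, the ferritin chains Fth1 and Ftl1, the exporter Slc40a1 and the ferroxidase Cp, and the iron sensors Aco1 and Ireb2. Each of the 10 had 1 probe that the platform annotation gave to that gene alone, among 36227 probes of the array, and 18014 genes had such a probe and a test. A further probe shared between Fth1 and another gene was left out. The arrays were one-colour CodeLink mouse whole genome arrays hybridised with biotin-labelled total RNA from the mouse preadipocyte line 3T3-L1, which turns into lipid-storing adipocytes in an adipogenic mixture. All cells were taken 10 days after differentiation, from adipocytes expressing uncoupling protein 1 (UCP1, 3 arrays) or adipocytes with the Tet-off plasmid alone (control, 3 arrays). UCP1 is the carrier that lets protons re-enter the mitochondrial matrix without making ATP, and the series asked what its forced expression does to adipocyte gene expression. The titles of the UCP1 arrays end in a digit that may count replicates or name a different uncoupling protein, whereas the source label gives uncoupling protein 1 for all 3, and the groups follow the source label. The labels of the UCP1 cells name no plasmid, and they do not tell whether either line was 1 clone or whether replicate arrays stand for separate cultures. P-values therefore rest on array-to-array spread that may be no more than technical.

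Most cells take up iron bound to transferrin, which docks on the transferrin receptor, is carried into an acid endosome and gives up its iron there to a ferrous iron transporter. Iron that is not used at once for haem and iron-sulphur clusters, much of it in mitochondria, is stored inside ferritin shells, and ferroportin is the only known route of export for free iron. The iron regulatory proteins read the supply: when iron is short they bind hairpins in mRNAs, stabilise the transferrin receptor mRNA and block translation of the ferritin mRNAs. An mRNA level therefore bears on the receptor more directly than on ferritin protein.

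Transcription of Tfrc is also known to respond to hypoxia-inducible factors, which recognise the core ACGTG, and ferritin genes are known targets of NRF2, which recognises TGACNNNGC. RefSeq start-site windows of GRCm38.p6, each with 250 bases before the start and 50 after it, were at hand for 7 of the 10 genes. Trf, Slc11a2 and Slc40a1 had none. ACGTG on either strand was found in 2 of the 10 windows of these genes, against 19.6% of all 32851 windows, and both were overlapping windows of Tfrc that hold the same copy. TGACNNNGC was found in 1 of the 10, at position -67 of Hfe, against 12.4% of all windows. The Tfrc stretch is shown because it is the one uptake gene below with a window and with array groups that did not overlap. It runs from 100 bases before the upstream start to 8 bases from it, on the plus strand at chr16:32608796-32608903, and capitals mark ACGTG, whose first base is at position -2.
Tfrc: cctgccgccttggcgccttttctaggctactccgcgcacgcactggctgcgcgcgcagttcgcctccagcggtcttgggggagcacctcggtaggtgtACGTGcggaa
A match of these letters is a description, not a binding site.

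Intensities were deposited on a linear scale with array medians of 1.04 to 1.05, so a value is relative to the middle of its array and says nothing of total RNA. The Ucp1 probe read 2.34, 2.02 and 1.54 on the UCP1 arrays, against 0.222, 0.232 and 0.278 on the control arrays, which matched the labels. The 99th percentile of intensity was 185 to 225 on the UCP1 arrays and 255 to 279 on the control arrays, so bright probes lay lower on the UCP1 arrays as a whole. Adipocyte markers were bright, with 6 of 9 measured, 0 past the threshold and summed intensities of 2810 to 3880 in UCP1 and 3410 to 3910 in controls. Lpl was the brightest probe of UCP1 array 1 and Adipoq that of UCP1 array 2, so a difference in these markers could be masked at the maximum. Of 7 preadipocyte or fibroblast markers, Pdgfra rose by 0.67 and Thy1 by 0.80 (log2), beside 1.13% of all genes by their brightest probe. Col1a1 at -0.21, Col3a1 at -0.06 and Cd34 at -0.29 lay below 0 without passing. Summed intensities of this list were 682 to 884 in UCP1 and 665 to 896 in controls. The Pdgfra call held in 2 of 6 fits that left out an array (UCP1 array 1 or 2) and the Thy1 call in 3 of 6 (UCP1 array 1 or 2, or control array 1). A second probe of Pdgfra was at 0.16 (limma, adjusted p = 0.851), and a second, dimmer probe of Dlk1, a preadipocyte marker, was higher by 1.08 (limma, adjusted p = 0.00526). Quantile normalization gave 3 rises in this list, with Pdgfrb the further one (adjusted p = 0.00759). Of 5 measured macrophage markers Lyz2 rose, by 1.48 (log2; limma, adjusted p = 0.00571). The macrophage sums were 13.8 to 14.9 in UCP1 and 11.1 to 16.2 in controls. Cd14 made up most of them, at 10.5 to 11.4 in UCP1 and 9.99 to 14.4 in controls. Its log2 difference was -0.22 (limma, adjusted p = 0.482). Adgre1, Ptprc and Itgam stayed dim, although no marker reading was at 0. Erythroid and hepatocyte markers had 0 calls among 2 and 4 measured genes (limma, with 0 and 1 at an unadjusted p under 0.05, beside 20.8% of all genes by their brightest probe), and sums of 1.45 to 1.88 and 2.49 to 3.10 in UCP1, and 1.53 to 1.71 and 2.55 to 2.87 in controls. The part of these markers in the iron gene results was not tested.

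In UCP1 adipocytes 2 of the 10 iron genes fell, both of them uptake genes: Trf to 41.1% of the control level and Slc11a2 to 47.3%. None rose. The receptor Tfrc lay lower on all 3 UCP1 arrays, at 66.1% of the control level, and narrowly missed the threshold (limma, adjusted p = 0.0553). The storage, export and sensing genes did not pass, nor did Hfe. Each gene was tested with limma on log2 intensity, with Benjamini-Hochberg adjustment over 36116 probes and a threshold of 0.05, and 2.03% of all tested probes fell and 0.800% rose. That balance depends on the scaling: 289 probes rose and 732 fell as deposited, against 567 and 446 after quantile normalization. At an unadjusted p under 0.05, 4 of the 10 were lower and 0 higher, against 11.8% and 5.30% of all tested probes. After quantile normalization 3 were lower and 0 higher, against 8.51% and 8.93%. The 3 UCP1 arrays lay wholly below the controls for 3 of the 10 (Trf, Tfrc and Slc11a2), against 14.0% of all probes, and wholly above for 0, against 7.89%. The median log2 difference of the 10 was -0.18, with 8 below 0, beside a median of -0.06 over all tested probes, of which 56.9% were below 0. After quantile normalization the median was -0.03, with 6 below 0. Over all 36116 tested probes it was then 0.02, with 17264 below 0. The genes were picked by name for their shared theme, so these counts are a description, and fewer cells expressing a gene and less RNA per cell cannot be told apart.

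**Figure D1:**
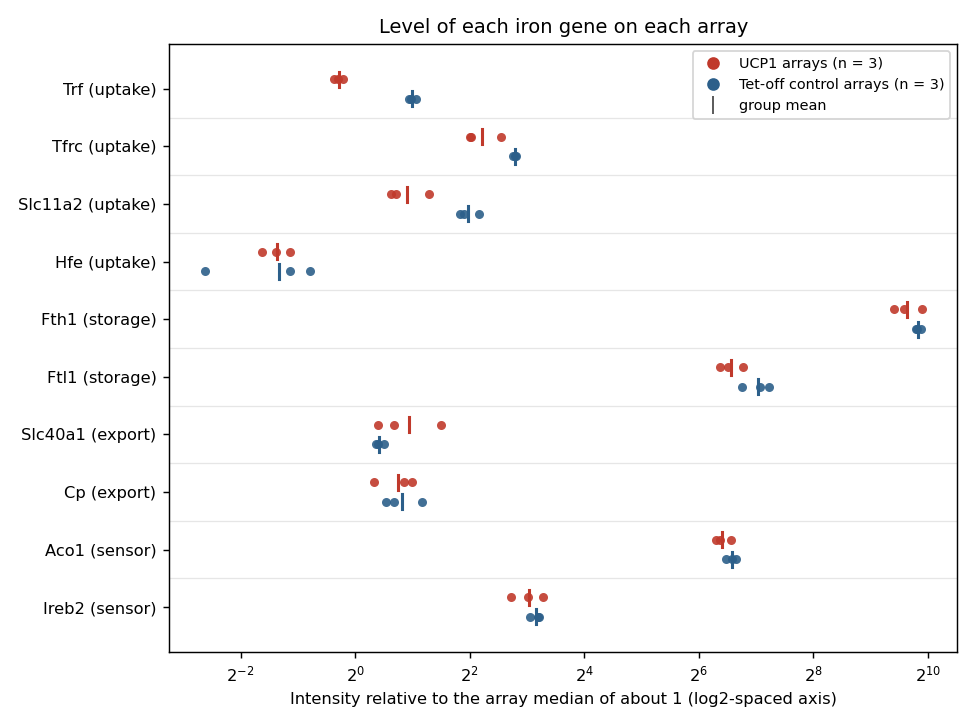
Intensity of the 10 iron genes on each array, relative to an array median of about 1 (log2-spaced axis), with UCP1 arrays in red above control arrays in blue, 1 point per array and a bar at the mean of each group of 3. For Trf, Tfrc and Slc11a2 every UCP1 point lies left of every control point, while the points of the other genes overlap.

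Trf encodes transferrin, the iron carrier of plasma, which the liver secretes and other cells make in smaller amounts. Its probe (feature 142083) read 0.813, 0.779 and 0.866 on the UCP1 arrays, against 1.93, 2.10 and 1.96 on the control arrays. The groups lay far apart and each was tight, with a coefficient of variation of 5.30% in UCP1 and 4.59% in controls. Trf averaged 0.819 ± 0.0435 in UCP1 and 1.995 ± 0.0915 in controls (SD, n = 3 each). The fall was 2.44-fold, -1.28 ± 0.155 (SE) on the log2 scale with a 95% interval of -1.62 to -0.95 (limma, adjusted p = 0.00191). In position on the array, Trf was above 44.4% to 46.2% of the probes in UCP1 and above 60.7% to 62.3% in controls. Its UCP1 readings thus lay below the array medians. The erythroid marker Alas2 (1.17 to 1.39 over the 6 arrays) and the hepatocyte marker Apoa1 (1.05 to 1.73) read between the 2 groups of Trf readings. The other measured erythroid and hepatocyte markers read lower than these, and the part of background in the Trf readings was not tested. An exact two-sided permutation test over the 6 arrays gave p = 0.1, the smallest that 3 against 3 arrays allow. The call held without any 1 of the arrays, with the highest adjusted p at 0.0204, and was lost in limma without the intensity trend (adjusted p = 0.104), a setting in which 0 probes of the whole array passed and 4951 had an unadjusted p under 0.05.

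Slc11a2 encodes the ferrous iron transporter DMT1, which moves iron out of the endosome and, in the gut, across the brush border. Its probe (feature 354071) read 1.55, 2.45 and 1.65 on the UCP1 arrays, against 4.46, 3.54 and 3.75 on the control arrays. The highest UCP1 array, the second, stayed below the lowest control. Slc11a2 averaged 1.88 ± 0.496 in UCP1 and 3.92 ± 0.485 in controls (SD, n = 3 each). It fell 2.12-fold, a log2 difference of -1.08 ± 0.180 (SE) with a 95% interval of -1.47 to -0.69 (limma, adjusted p = 0.0106; exact permutation p = 0.1). Without UCP1 array 3 the difference was -1.002 and the call was lost (limma, adjusted p = 0.0968), as it was without the intensity trend (adjusted p = 0.233).

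Tfrc encodes transferrin receptor 1, the main port of iron entry. Its probe (feature 93033) read 5.84, 4.08 and 4.0001 on the UCP1 arrays, against 6.93, 6.76 and 7.05 on the control arrays. Controls were nearly alike, and UCP1 array 1 stood closer to them than the other two UCP1 arrays did. Tfrc averaged 4.64 ± 1.04 in UCP1 and 6.91 ± 0.146 in controls (SD, n = 3 each), a log2 difference of -0.60 ± 0.148 (SE) with a 95% interval of -0.92 to -0.27 (limma, adjusted p = 0.0553; exact permutation p = 0.1). It passed without UCP1 array 1, at -0.77 (limma, adjusted p = 0.00593), with an offset before log2 (adjusted p = 0.0457) and when only the brighter probes were tested (adjusted p = 0.0177). Tfrc did not pass after quantile normalization (limma, adjusted p = 0.0684), after cyclic loess (0.0546) or with the replicate number as a block (0.0619). Nor did it pass without any 1 of the other arrays (highest adjusted p 0.268). Its adjusted p over all the alternatives ran up to 0.2998, without the intensity trend.

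Hfe encodes the protein that binds the transferrin receptor and whose loss causes hereditary iron overload. Its probe (feature 95046) was dim, at 0.385, 0.455 and 0.323 on the UCP1 arrays, against 0.577, 0.163 and 0.456 on the control arrays. The groups overlapped, and control array 2 was the lowest of all 6, above 9.43% of the probes of that array. The log2 difference was 0.13 ± 0.451 (SE) and its 95% interval, -0.85 to 1.12, was the widest of the 10 (limma, adjusted p = 0.916). Without control array 2 it was -0.42, so its direction rested on that array.

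**Figure D2:**
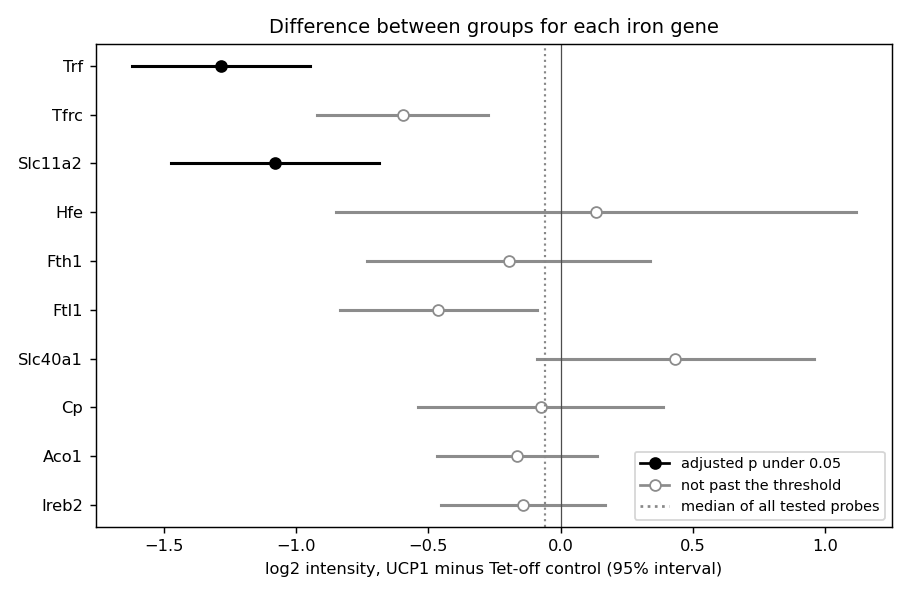
Difference in log2 intensity, UCP1 minus Tet-off control, for each of the 10 iron genes, with 95% intervals from limma (3 arrays per group). Filled black points passed an adjusted p of 0.05 (Trf at -1.28 and Slc11a2 at -1.08), open grey points did not, and the dotted line is the median of all tested probes at -0.06.

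The ferritin chains were among the bright probes of the array and did not pass. Fth1 encodes the heavy chain, which oxidises iron as it enters the shell. Its probe (feature 267097) read 949, 765 and 683 on the UCP1 arrays, against 895, 884 and 941 on the control arrays. It was between the brightest and the fourth brightest probe on every array, where the array maxima were 683 to 950 in UCP1 and 932 to 943 in controls. Readings this close to the maximum could mask a difference. The groups overlapped because UCP1 array 1 had the highest reading of the 6. The log2 difference was -0.20 ± 0.245 (SE), with a 95% interval of -0.73 to 0.34 (limma, adjusted p = 0.74), and its direction turned under quantile normalization (0.01) and cyclic loess (0.14).

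Ftl1 encodes the light chain, which helps the iron core form. Its probe (feature 168038) read 91.5, 110 and 83.1 on the UCP1 arrays, against 150, 134 and 108 on the control arrays. UCP1 array 2 stood just above control array 3, and otherwise UCP1 arrays were lower. Ftl1 averaged 94.7 ± 13.5 in UCP1 and 131 ± 21.2 in controls (SD, n = 3 each), a log2 difference of -0.46 ± 0.170 (SE) with a 95% interval of -0.83 to -0.09 before adjustment over all probes (limma, adjusted p = 0.178). After quantile normalization the difference was -0.20 (adjusted p = 0.48) and under cyclic loess -0.24 (adjusted p = 0.433). Both ferritin differences moved towards or past 0 under these scalings.

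Slc40a1 encodes ferroportin, the iron exporter. Its probe (feature 29068) read 2.83, 1.599 and 1.31 on the UCP1 arrays, against 1.33, 1.28 and 1.42 on the control arrays. UCP1 array 1 was by far the highest of the 6, and UCP1 array 3 lay inside the control range. The log2 difference was 0.43 ± 0.240 (SE), with a 95% interval of -0.09 to 0.96 (limma, adjusted p = 0.402), and 0.11 without UCP1 array 1. Its coefficient of variation, 42.0% in UCP1 and 5.01% in controls, was the highest of the 10 genes in UCP1.

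Cp encodes ceruloplasmin, the copper ferroxidase that oxidises iron as ferroportin releases it. Its probe (feature 372034) read 1.25, 1.99 and 1.80 on the UCP1 arrays, against 2.26, 1.59 and 1.46 on the control arrays. The groups overlapped in part, with a log2 difference of -0.08 ± 0.213 (SE) and a 95% interval of -0.54 to 0.39 (limma, adjusted p = 0.897). The direction turned without UCP1 array 1 (0.12) and without control array 1 (0.11).

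Aco1 encodes the cytosolic aconitase that, without its iron-sulphur cluster, becomes iron regulatory protein 1. Its probe (feature 66068) read 94.2, 82.4 and 78.5 on the UCP1 arrays, against 95.6, 101 and 89.2 on the control arrays. UCP1 array 1 lay among the controls, and the log2 difference was -0.165 ± 0.139 (SE) with a 95% interval of -0.47 to 0.14 (limma, adjusted p = 0.604). It turned positive under quantile normalization (0.09) and cyclic loess (0.05).

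Ireb2 encodes iron regulatory protein 2, which is degraded when iron is plentiful. Its probe (feature 169088) read 9.75, 6.60 and 8.15 on the UCP1 arrays, against 9.14, 9.24 and 8.35 on the control arrays. UCP1 arrays lay on both sides of the controls. The log2 difference was -0.14 ± 0.142 (SE) with a 95% interval of -0.45 to 0.17 (limma, adjusted p = 0.671), and 0.002 without UCP1 array 2. As a share of the control level, the 95% interval ran from 72.3% to 110.1% for Aco1 and from 73.1% to 112% for Ireb2.

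The UCP1 arrays were less alike than the controls for most of these genes. Their coefficient of variation was larger in 7 of 10, a count made without the share over all probes. It ran from 5.30% to 42.0% in UCP1 and from 2.11% to 53.5% in controls. UCP1 array 1 was the highest of its group for Tfrc, Fth1, Slc40a1, Aco1 and Ireb2, and UCP1 array 3 was the lowest for 6 genes, among them both ferritin chains. Trf and Slc11a2 did not follow that order, since Trf was highest on UCP1 array 3 and Slc11a2 lowest on UCP1 array 1. The 99th percentile of intensity was also lowest on UCP1 array 3, at 185, against 225 on array 1 and 223 on array 2. Its part in the order of the bright genes was not tested.

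**Figure D3:**
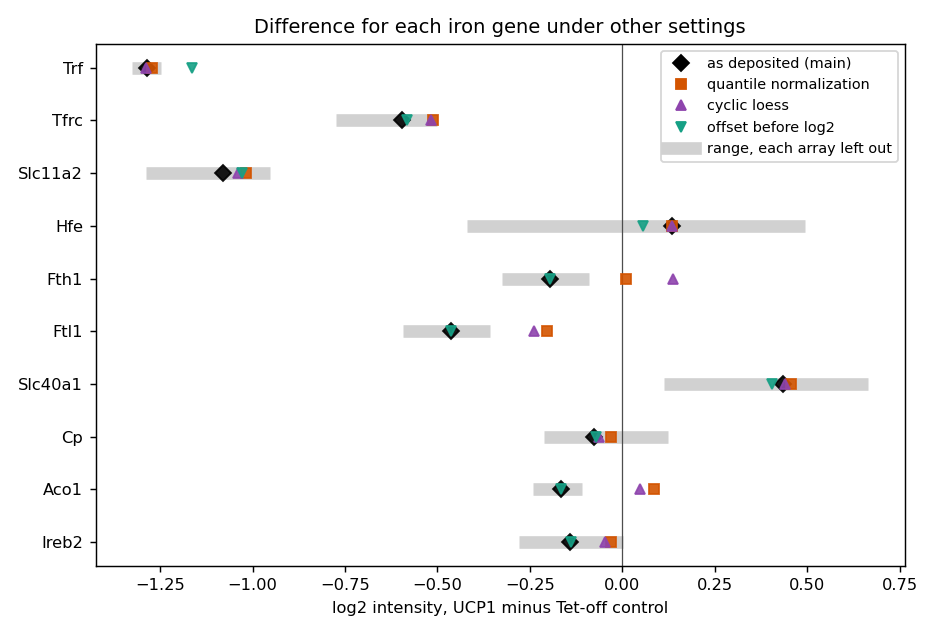
Difference in log2 intensity, UCP1 minus Tet-off control, for each of the 10 iron genes as deposited (diamond), after quantile normalization (square), after cyclic loess (up triangle) and with an offset before log2 (down triangle), and grey bars for the range when each array is left out in turn. Trf, Tfrc, Slc11a2 and Ftl1 stay below 0 under all of these and Slc40a1 stays above 0, whereas Fth1, Aco1, Hfe, Cp and Ireb2 reach both sides of 0.

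Among 12049 brighter probes of 1 gene each, the 5 with log2 profiles most like that of Trf belonged to Ebpl, Adssl1, Actg2, Slc37a4 and Hat1, with Pearson r of 0.995 to 0.998 over the 6 arrays. Those arrays form 2 groups, so r mostly reflects the step between them. All 5 were lower in UCP1, by log2 differences of -0.62 to -1.59, and Actg2, a smooth muscle actin, had the largest.

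Other genes of iron handling were taken from 7 lists holding 71 genes, of which 61 were measured, each by its brightest probe. The lists were written with earlier results of these data known, so the counts are a description. Of the 61, 5 fell and 1 rose (limma), beside 2.92% of all 18014 genes that fell and 1.13% that rose by the same rule. Their median log2 difference was -0.14, against -0.08 over all genes, and 42 lay below 0, beside 56.9% of all tested probes. Quantile normalization left 2 that fell and 2 that rose, beside 446 and 567 of all 36116 tested probes, and a median of -0.03.

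In iron entry and reduction, 1 of 13 genes fell and 1 rose. Tfr2, the second transferrin receptor, known as an iron sensor of liver and of red cell precursors, read 2.96, 2.21 and 2.51 on the UCP1 arrays, against 5.32, 5.21 and 5.78 on the control arrays. It fell 2.13-fold, a log2 difference of -1.09 ± 0.135 (SE) (limma, adjusted p = 0.00204), and the call held without any 1 array (highest adjusted p 0.0311) and after quantile normalization (adjusted p = 0.00332). Steap2, a membrane metalloreductase, rose 1.56-fold, with readings of 3.27, 3.58 and 3.17 on the UCP1 arrays, against 2.32, 2.07 and 2.02 on the control arrays (limma, adjusted p = 0.0237). The Steap2 call was lost without UCP1 array 3 (adjusted p = 0.115), control array 2 (0.089) or control array 3 (0.0727). Steap3, the reductase of the transferrin endosome in red cell precursors, was measured at -0.02 and Slc39a14, a transporter of iron not bound to transferrin, at 0.04. 

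None of 6 genes of ferritin delivery and turnover passed (limma), and 2 had an unadjusted p under 0.05, against 20.8% of all genes. Ncoa4, the receptor that brings ferritin to the lysosome, was measured at -0.72 (limma, adjusted p = 0.116), with 2.72, 3.66 and 2.76 on the UCP1 arrays, against 7.34, 4.77 and 3.51 on the control arrays. The groups overlapped, and control array 1 was the highest. Pcbp2, a poly(C)-binding protein that can carry iron, was measured at -0.42 (adjusted p = 0.125), and at -0.15 after quantile normalization. The list's median was -0.36, and -0.09 after quantile normalization.

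Among 10 measured genes of haem iron, Slc46a1, a folate transporter that can also carry haem, was the 1 that fell, 1.65-fold (limma, adjusted p = 0.034), and 0 rose. It read 2.65, 3.35 and 2.37 on the UCP1 arrays, against 5.33, 3.97 and 4.50 on the control arrays. The call was lost after quantile normalization (adjusted p = 0.0547) and without UCP1 array 1 (0.0532), UCP1 array 3 (0.197), control array 1 (0.134) or control array 3 (0.0725). Lrp1, a receptor that takes up haem bound to hemopexin, was measured at 0.26 (limma, adjusted p = 0.428) and rose after quantile normalization (0.51, adjusted p = 0.0126) and cyclic loess (0.47, adjusted p = 0.021), so quantile normalization gave 0 falls and 1 rise in this list. Hmox1, the oxygenase that frees iron from haem, read 98.2, 68.5 and 83.0 on the UCP1 arrays, against 128, 104 and 163 on the control arrays, with no overlap. It was measured at -0.66 (limma, adjusted p = 0.0921), and at -0.38 after quantile normalization. Lrp1 and Hmox1 were named after their values were seen.

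Mitochondrial iron and iron-sulphur cluster genes gave 3 falls and 0 rises among 21, beside 2.92% and 1.13% of all genes. Of the 21, 19 lay below 0, beside 56.9% of all tested probes. Among the 18058 brighter probes, at or above the median level, 11650 lay below 0, and the list was not matched for brightness. Their median was -0.24, against -0.08 over all genes. After quantile normalization 14 of 21 lay below 0, with a median of -0.13 and 1 fall, beside 17264 of all 36116 tested probes below 0. Isca1, which helps assemble iron-sulphur clusters in mitochondria, fell 2.21-fold, with 14.2, 15.97 and 15.5 on the UCP1 arrays, against 41.8, 28.7 and 31.6 on the control arrays (limma, adjusted p = 0.00221). The Isca1 call held without any 1 array (highest adjusted p 0.0291) and after quantile normalization (adjusted p = 0.00624). Abcb8, a transporter of the mitochondrial inner membrane linked to iron export from the organelle, fell 1.88-fold (limma, adjusted p = 0.0392). Ciao3, listed under its older name Narfl and part of the cytosolic iron-sulphur assembly machinery, fell 1.83-fold (limma, adjusted p = 0.0473). Both of the last calls were lost after quantile normalization (adjusted p = 0.0592 for Abcb8 and 0.101 for Ciao3) and without UCP1 array 1, UCP1 array 3, control array 1 or control array 2, with adjusted p of 0.0677, 0.21, 0.149 and 0.0977 for Abcb8 and of 0.0922, 0.247, 0.166 and 0.119 for Ciao3. The mitochondrial iron importers Slc25a37 and Slc25a28 were measured at 0.09 and -0.24 without passing, and were named after their values were seen.

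The remaining lists had 0 calls (limma), with 0 of 2, 1 of 5 and 1 of 4 genes at an unadjusted p under 0.05, against the same 20.8% of all genes. In export and oxidation, the ferroxidase Heph was measured at 0.06 and its relative Hephl1 at 0.05. In iron sensing and hepcidin control, Hjv, the hemojuvelin co-receptor, had the smallest p with a log2 difference of 0.97 (adjusted p = 0.207), with 1.09, 0.381 and 0.859 on the UCP1 arrays, against 0.271, 0.397 and 0.435 on the control arrays. Neo1, a receptor that binds hemojuvelin, was at -0.33 (adjusted p = 0.651), with overlapping groups. Of 4 measured mRNAs with an iron-responsive element outside the 10 genes, 0 lay below 0, beside 56.9% of all tested probes. Alas2, at 0.07, and Cdc42bpa, at 0.009, were close to 0, although a second probe of Cdc42bpa was at 1.14 (limma, adjusted p = 0.331). Cdc14a, a phosphatase, at 0.77 (limma, adjusted p = 0.204) and the hypoxia factor Epas1, at 0.26, read below the array median on every array.

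**Figure D4:**
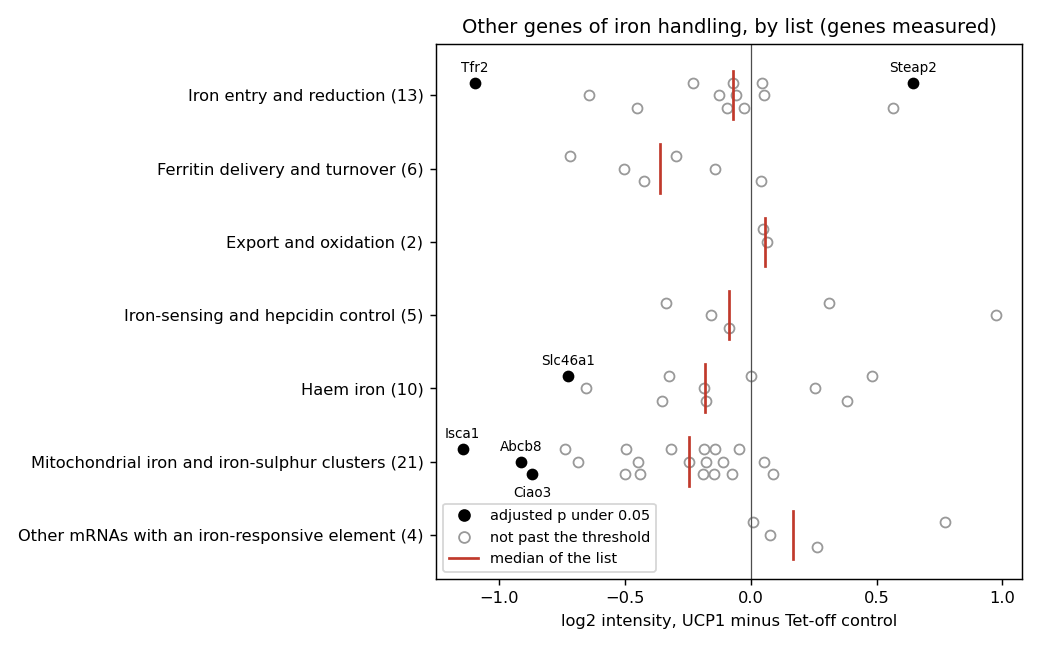
Difference in log2 intensity, UCP1 minus Tet-off control, for 61 other genes of iron handling in 7 lists, 1 point per gene, with red bars for list medians and the number measured in brackets. Filled points passed an adjusted p of 0.05, with Tfr2, Slc46a1, Isca1, Abcb8 and Ciao3 lower and Steap2 higher.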

How the data were processed

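The deposited values were spot intensities on a linear scale with array medians of 1.04 to 1.05. The scanner software, background correction and any scaling were not given in the sources used here. A code of -9999 was read as missing (116 to 125 probes per array). Values at or below 0 (80 to 159 per array) were raised to that array's smallest positive value before log2. Probes with at least 2 values per group were tested (36116 of 36227). All 6 arrays entered 1 fit in limma 3.58.1 (R 4.3.3; lmFit, eBayes with intensity trend, two-sided), UCP1 minus control, with Benjamini-Hochberg adjustment over all tested probes. The number of arrays limits precision. No slide or scan date was used here. On simulated arrays of 36116 probes at these levels, 14%, 80% and 100% of probes changed by 0.5, 1 and 2 (log2) were recovered. The changed probes (100, 50 and 50) were drawn from those at or above the median level, with independent noise. Fewer probes were changed than were called in these data (732 lower and 289 higher), so the shares may not carry over. Of the 115 calls, 11 were of unchanged probes. Recovery was not computed for dim probes as a set, where spread can be larger (SE 0.451 for Hfe, against 0.155 for Trf). These shares therefore do not speak for dim probes. Probe names came from the platform annotation (21615 probes with 1 symbol, 681 with several, 13931 with none), and older names were matched through gene identifiers.

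The 10 genes, the other iron gene lists and the marker lists were chosen with earlier results of these data known. All 10 genes were named. Each list contributed its called genes or, with none called, the 2 with the smallest p, and other genes were named after their values were seen. Alternatives were an offset before log2 (0.129, from the 5th percentile of positive values), quantile and cyclic loess normalization, the brighter probes only, eBayes without trend, the replicate number as a block and each array left out.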

Additional observations from a re-analysis of the deposited data

How the results depend on the processing

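Of the 10 iron genes 2 fell as deposited, 0 without the intensity trend (4 with an unadjusted p under 0.05) and 1 to 3 with each array left out, and 0 rose under every alternative run. For the other iron genes, 5 that fell and 1 that rose became 2 and 2 under quantile normalization, 2 and 2 under cyclic loess, 10 and 2 on the brighter probes alone, 0 and 0 without the trend (15 with an unadjusted p under 0.05), and 11 and 2 without the trend on the brighter probes, a setting chosen after seeing the data. With each array left out, 2 to 7 fell and 0 to 2 rose. Over all tested probes, 732 that fell and 289 that rose became 446 and 567, 460 and 517, 1716 and 523, 0 and 0, and 1645 and 490 under the same 5 settings in that order, with 93 to 1610 and 66 to 395 when each array was left out. The lowest counts came without UCP1 array 3, at 93 and 66. Fth1 turned to 0.009 (quantile) and 0.136 (cyclic loess) and Aco1 to 0.086 and 0.047. With each array left out, Hfe ran from -0.42 to 0.495, Cp from -0.21 to 0.12 and Ireb2 from -0.28 to 0.002. The cause was not tested. With the replicate number as a block, 2 of the 10 genes and 4 other iron genes fell, 1 rose, and 560 and 230 probes fell and rose over all. The deviations of same-numbered arrays correlated at -0.24, -0.00693 and 0.104, so the numbers were not taken to pair the arrays. Dim signal limits Hfe and bears on Trf, whose UCP1 readings lay below the array medians, and the top of the scale limits Fth1.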
